A study of Mus musculus with 19 samples.

Results

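The genes described here make cholesterol in the liver, or regulate or answer to the same transcription factor, SREBP2 (gene Srebf2). Mylip, an LXR-induced gene, is an exception. They were taken by name from the deposited tables: 27 genes, all of which were found, out of 24192 genes in all. The set holds 4 regulators (Srebf2, Scap, Insig1, Insig2), 7 enzymes of the mevalonate and isoprenoid steps (Hmgcs1, Mvk, Pmvk, Mvd, Idi1, Fdps, Ggps1), 3 enzymes from farnesyl diphosphate to lanosterol (Fdft1, Sqle, Lss), 9 enzymes from lanosterol to cholesterol (Cyp51, Tm7sf2, Lbr, Msmo1, Nsdhl, Hsd17b7, Ebp, Sc5d, Dhcr7) and 4 further members (Stard4, Acat2, Mylip, Acss2). The names were fixed without a threshold on these data, but with earlier results of these data known. It is not a complete list of the pathway.

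RNA-seq of whole liver was available from 19 adult mice, 1 library per mouse ID. LF-C (n = 4) were control mice on the LFCF diet, a low fat diet, and LF-KO (n = 4) were mice labelled as hepatocyte-specific PPARgamma knockouts on that diet. HF-C (n = 5) and HF-KO (n = 6) were the control and knockout mice on the HFCF diet, which was high in fat, cholesterol and fructose and was fed for 24 weeks; the submitters label both HF groups as non-alcoholic steatohepatitis and both LF groups as healthy. The knockout was induced ahead of the HFCF feeding. The promoter or virus behind the recombinase, the deleted exons, the alleles that controls carry, and the mice's sex and exact age are not stated in the sources at hand. The comparisons ask what the HFCF diet does in control and in knockout mice, and what the knockout does on each diet.

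Cholesterol synthesis is controlled by the sterol it makes. When the membranes of the endoplasmic reticulum hold little cholesterol, Scap escorts the SREBP2 precursor to the Golgi, where proteases release the active factor, which then switches on nearly every enzyme of the pathway. When sterols are plentiful, the Insig proteins hold Scap and SREBP2 back. Insig1 is itself a target of the factor, so its transcript is a common readout of SREBP activity, whereas Insig2 in liver is less dependent on SREBPs. The liver is a main site of this synthesis, and dietary cholesterol is known to lower it.

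SREBP2 binds the sterol regulatory element, often close to boxes for the factors NF-Y (CCAAT) and Sp1 (GGGCGG). RefSeq promoter windows (GRCm38.p6, 250 bases before to 50 after the start) were matched by symbol for 23 of the 27 members; Fdps, Fdft1, Sqle and Stard4 had none. The letters TCACNCCAC, searched on both strands, were found in 1 of the 23 members (4.35%), Hmgcs1, and in 1.41% of 17492 coding genes. With any base allowed first, NCACNCCAC, 3 members matched (13.0%): Acat2, Hmgcs1 and Insig1, against 7.23% of coding genes. CCAAT was found in 21 of 23 members (91.3%) and in 42.3% of coding genes, and GGGCGG in 21 members (91.3%) and in 49.2% of coding genes. These shares are descriptions, and a window without a match says only that the letters are not in those 300 bases.

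Windows are shown for Hmgcs1, which held the element, and for Insig1, Idi1 and Acss2, chosen after their values were seen because their difference between HF-KO and HF-C kept its call under each alternative tried. All 4 lie on the plus strand and are written 5′ to 3′. Capitals mark matches to NCACNCCAC and to CCAAT on either strand (ATTGG is CCAAT on the other strand).
Hmgcs1 (chr13:119690101-119690400): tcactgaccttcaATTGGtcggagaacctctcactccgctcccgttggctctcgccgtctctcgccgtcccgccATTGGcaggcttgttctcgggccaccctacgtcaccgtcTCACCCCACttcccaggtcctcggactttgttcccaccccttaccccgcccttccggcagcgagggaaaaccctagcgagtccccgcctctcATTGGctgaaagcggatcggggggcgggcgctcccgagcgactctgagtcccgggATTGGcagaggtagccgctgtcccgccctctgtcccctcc
Insig1 (chr5:28071162-28071461): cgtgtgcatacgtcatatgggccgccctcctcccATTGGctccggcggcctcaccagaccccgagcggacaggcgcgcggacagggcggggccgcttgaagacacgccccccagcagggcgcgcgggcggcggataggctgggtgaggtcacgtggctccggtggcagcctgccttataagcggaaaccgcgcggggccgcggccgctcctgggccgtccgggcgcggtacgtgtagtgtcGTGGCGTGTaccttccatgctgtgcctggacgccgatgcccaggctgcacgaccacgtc
Idi1 (chr13:8885356-8885655): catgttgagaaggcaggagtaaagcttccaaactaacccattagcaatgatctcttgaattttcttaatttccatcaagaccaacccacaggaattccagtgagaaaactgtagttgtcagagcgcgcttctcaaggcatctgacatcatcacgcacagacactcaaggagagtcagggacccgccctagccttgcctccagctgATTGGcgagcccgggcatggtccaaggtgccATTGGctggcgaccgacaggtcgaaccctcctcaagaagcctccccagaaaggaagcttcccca
Acss2 (chr2:155517793-155518092): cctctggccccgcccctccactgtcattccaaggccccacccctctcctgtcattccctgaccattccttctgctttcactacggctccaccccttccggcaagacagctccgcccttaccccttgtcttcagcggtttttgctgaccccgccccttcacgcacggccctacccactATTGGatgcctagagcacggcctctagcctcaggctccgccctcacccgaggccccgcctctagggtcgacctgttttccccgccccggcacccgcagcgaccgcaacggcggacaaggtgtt
The Hmgcs1 element spans -137 to -129 from the start site, between CCAAT matches at -176 to -172 and -45 to -41. In Insig1 the matching letters end at -1 and the CCAAT match lies at -216 to -212. Idi1 and Acss2 held CCAAT but no match to the element in these windows, and Acss2 held 5 GGGCGG matches.

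Libraries held 11437875 to 20711869 counted fragments, and every member was counted in every library (at least 40 fragments per library). Values per library are CPM, counts scaled to the library total and TMM factors, and a fold change is log2 with its SE from edgeR's quasi-likelihood test, adjusted by the Benjamini-Hochberg method over all genes tested and called at an adjusted p under 0.05. The targeted gene did not check the knockout label. Pparg stood at 18.7, 7.65, 5.94 and 12.7 CPM in LF-C, at 35.5, 41.4, 12.6 and 11.6 in LF-KO, at 27.6, 25.6, 20.7, 31.3 and 21.8 in HF-C, and at 46.9 to 108 (median 56.3) in HF-KO. It was thus higher, not lower, in the HF libraries labelled KO (log2 1.47 ± 0.23, edgeR adjusted p = 0.00276), and every HF-KO library lay above every HF-C library. A count over the whole gene does not separate deleted from retained exons, and liver holds cells other than hepatocytes; KO below means the libraries labelled KO.

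Library LF-C-2 stood apart. Its TMM factor was 0.644, its mitochondrial share 1.64% and the share of its 10 most abundant genes 25.5%. Its deviation from the other LF-C libraries fell with listed gene length (Spearman's rho -0.53 across all genes, which are not independent), while LF-C-3 and LF-C-4 showed the opposite sign (0.53 and 0.51). Among the members, the 5 with listed lengths under 2 kb were a median of 0.94 higher on the log2 scale in LF-C-2 than in the rest of its group, and the 6 of at least 4 kb were 0.94 lower (-0.94). The trend was not confined to LF-C: among the HF-KO libraries rho was -0.47 in HF-KO-2, whose long members were a median of 0.85 lower (-0.85), 0.45 in HF-KO-5 and 0.39 in HF-KO-4. LF-C-1 leaned the same way as LF-C-2 across all genes (rho -0.24) but hardly among the members (-0.07). Its short and its long members were both higher than in the other LF-C libraries (medians 0.30 and 0.41). It was the highest LF-C library for 15 of the 27 members, so leaving it out also removes their highest control value. Each comparison with LF-C is also given without LF-C-1 and LF-C-2 together, an alternative chosen after seeing the data.

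**Figure D1:**
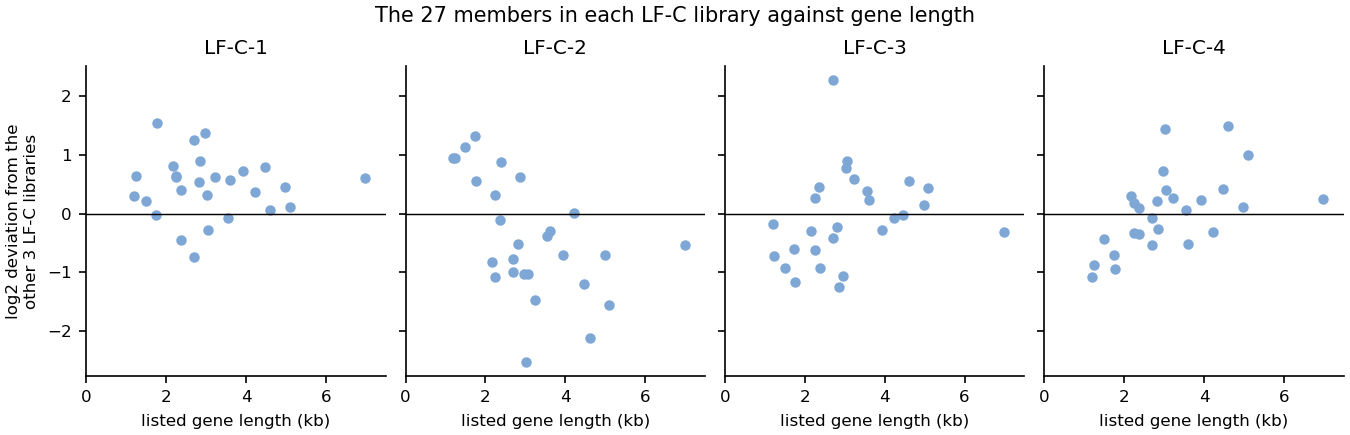
Each point is 1 of the 27 members in 1 LF-C library: the x axis gives listed gene length in kb, and the y axis the log2 deviation of its CPM from the mean of the other 3 LF-C libraries. In LF-C-2 short members lie above 0 and long members mostly below it, and in LF-C-4 short members lie below 0.

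On the HFCF diet, control livers had less RNA of much of this gene set. Of the 27 members, 9 fell in HF-C against LF-C and none rose: the SREBP2 escort Scap, the enzymes Mvk, Pmvk, Fdps, Cyp51, Tm7sf2, Nsdhl and Ebp, and the acetyl-CoA synthetase Acss2. Across all genes tested, 7.15% were called lower and 10.6% higher in this comparison. The median log2 fold change of the 27 was -0.70, against 0.02 over all genes tested, and 22 of the 27 values were negative. Fold changes of the 9 ran from -1.65 for Tm7sf2 to -0.70 for Cyp51. Srebf2 itself, the factor's own gene, was not called (0.14 ± 0.18), and neither were Hmgcs1, Lbr, Mylip and Insig2, whose estimates were above 0.

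**Figure D2:**
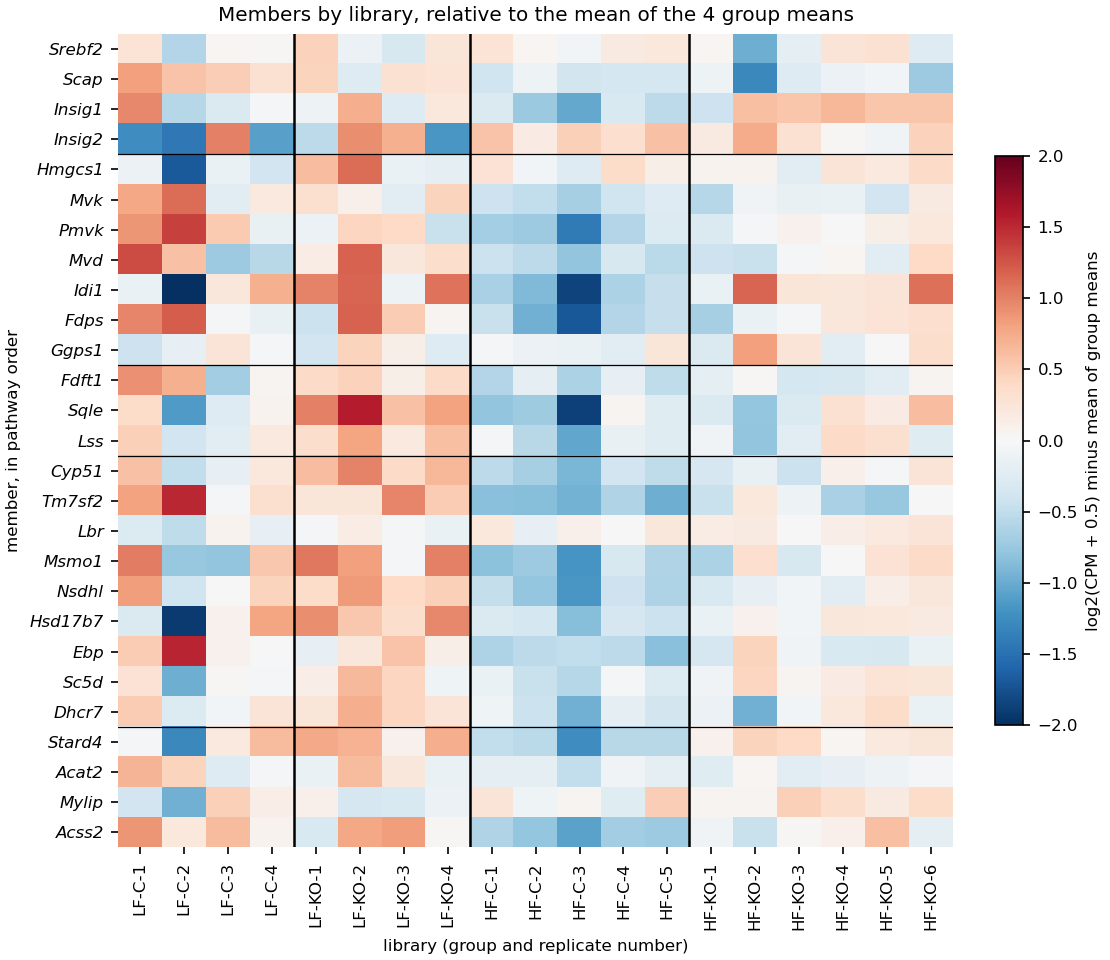
Rows are the 27 members in pathway order, with lines between roles, and columns the 19 libraries by group. Colour gives log2(CPM + 0.5) minus the mean of the 4 group means, limited to -2 and 2. HF-C columns are mostly blue below Hmgcs1, darkest in HF-C-3, which is the lowest of its group for 20 of the 27 members, and LF-C-2 mixes the extremes.

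Scap, which carries SREBP2 to the Golgi, read 149, 124, 118 and 104 CPM in LF-C and 63.5, 78.3, 64.7, 65.6 and 65.6 in HF-C. The groups did not overlap, and HF-C-2 was the highest of the HF-C libraries (log2 -0.90 ± 0.15, edgeR adjusted p = 0.00315). Srebf2 read 54.8, 30.0, 46.6 and 46.0 CPM in LF-C and 54.9, 46.3, 43.2, 51.2 and 52.4 in HF-C, with all but LF-C-2 in one range. Insig1 read 314, 109, 132 and 157 CPM in LF-C and 133, 96.2, 79.2, 131 and 113 in HF-C. Its LF-C group rests on 1 high library, LF-C-1, and the groups overlapped (-0.71 ± 0.30, edgeR adjusted p = 0.121). Insig2, the other Insig anchor, read 93.3, 82.1, 449 and 104 CPM in LF-C and 330, 249, 311, 281 and 335 in HF-C, so that LF-C-3 alone lay above the HF-C range (0.72 ± 0.46, edgeR adjusted p = 0.308).

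In the mevalonate steps, Mvk, which phosphorylates mevalonate, read 22.7, 29.2, 11.1 and 15.2 CPM in LF-C and 9.69, 9.21, 8.14, 9.81 and 10.9 in HF-C. LF-C-3 came within reach of the highest HF-C library (log2 -1.06 ± 0.27, edgeR adjusted p = 0.0215). Pmvk, which adds the next phosphate, read 51.9, 72.7, 40.4 and 25.3 CPM in LF-C and 17.4, 16.7, 10.2, 18.5 and 23.1 in HF-C. LF-C-2 was its highest and LF-C-4 its lowest LF-C library, still above HF-C (-1.50 ± 0.32, edgeR adjusted p = 0.00917). Fdps, which builds farnesyl diphosphate, read 346, 406, 171 and 158 CPM in LF-C and 128, 89.2, 53.9, 116 and 127 in HF-C (-1.43 ± 0.35, edgeR adjusted p = 0.0185). All 3 genes kept their groups apart, and LF-C-2 was the highest library of each. Idi1, the isomerase between them, read 14.8, 3.0, 19 and 26.9 CPM in LF-C and 10.1, 8.51, 4.12, 10.3 and 11.7 in HF-C. The single low value of LF-C-2 made the groups overlap (-0.84 ± 0.48, edgeR adjusted p = 0.249). Hmgcs1, which makes HMG-CoA for the pathway, Mvd, the decarboxylase, and Ggps1, which makes geranylgeranyl diphosphate and overlaps Arid4b, were not called, with log2 values of 0.56, -0.98 and 0.00.

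In the squalene steps no member was called. Fdft1, squalene synthase, read 136, 118, 44.2 and 74.5 CPM in LF-C and 47.9, 62.5, 46.3, 64.2 and 50.5 in HF-C (-0.81 ± 0.30, edgeR adjusted p = 0.082). It overlaps Ctsb on the other strand, which held 254807 reads against 21191 for Fdft1 over the 19 libraries, and the libraries do not keep strand, so its counts are uncertain. Sqle, the epoxidase that is a rate-controlling step after mevalonate, read 22.7, 7.73, 14.5 and 18.5 CPM in LF-C and 9.97, 10.5, 4.43, 18.2 and 14.8 in HF-C, with overlapping groups (-0.46 ± 0.39, edgeR adjusted p = 0.435). Lss, which closes the rings to lanosterol, had a log2 value of -0.45 ± 0.25.

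In the steps from lanosterol to cholesterol 4 of 9 members fell. Tm7sf2, a sterol C14 reductase, read 131, 214, 73.0 and 93.9 CPM in LF-C and 42.1, 41.6, 38.6, 49.1 and 38.0 in HF-C. The HF-C libraries lay close together and all below LF-C (log2 -1.65 ± 0.29, edgeR adjusted p = 0.00381). It overlaps Vps51 on the same strand, a gene with 5007 reads against 22599 for Tm7sf2. Lbr, a nuclear envelope protein with the same C14 reductase activity, gave 0.28 ± 0.17 and was not called. Ebp, the sterol isomerase, read 262, 529, 194 and 185 CPM in LF-C and 119, 128, 130, 127 and 103 in HF-C (-1.31 ± 0.31, edgeR adjusted p = 0.0151), and without LF-C-1 and LF-C-2 its value was -0.64 ± 0.12. Nsdhl, a C4 demethylation enzyme, read 51.8, 21.8, 29.0 and 39.4 CPM in LF-C and 20.6, 16.7, 12.6, 21.4 and 18.6 in HF-C, where LF-C-2 all but touched HF-C-4 (-1.0 ± 0.25, edgeR adjusted p = 0.0217). Cyp51, the lanosterol demethylase, read 91.0, 43.0, 53.7 and 70.0 CPM in LF-C and 42.1, 37.9, 31.7, 46.3 and 42.6 in HF-C. It was the only one of the 9 called members whose groups overlapped (-0.70 ± 0.22, edgeR adjusted p = 0.0474).

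The other members of these steps were not called. Msmo1, which starts C4 demethylation, read 106, 30.3, 29.7 and 75.5 CPM in LF-C and 29.1, 31.0, 22.5, 41.1 and 34.0 in HF-C. Hsd17b7, the ketosteroid reductase of the same steps, read 37.8, 11.9, 49.2 and 80.2 CPM in LF-C and 37.9, 36.4, 25.6, 36.7 and 34.2 in HF-C. Sc5d, a sterol desaturase, read 405, 167, 335 and 324 CPM in LF-C and 299.8, 243, 223, 326 and 272 in HF-C. For all 3 the LF-C libraries spread across the HF-C range, with LF-C-2 among the low ones. Dhcr7, the last reductase of 1 branch, gave -0.54 ± 0.22.

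Among the further members, Acss2, which makes acetyl-CoA from acetate in the cytosol and nucleus, read 207, 131, 175 and 118 CPM in LF-C and 74.0, 65.3, 53.2, 69.2 and 67.5 in HF-C. Every HF-C library lay well below LF-C (log2 -1.28 ± 0.19, edgeR adjusted p = 0.00171). Acss2 overlaps Gss on the other strand, a gene with 21016 reads against 34015 for Acss2. Stard4, a carrier that moves cholesterol between membranes, read 82.2, 34.3, 97.0 and 131 CPM in LF-C and 59.5, 57.6, 35.2, 57.0 and 57.2 in HF-C, and LF-C-2, below every HF-C library, alone set the overlap (-0.70 ± 0.31, edgeR adjusted p = 0.14). Acat2, a cytosolic thiolase with a close mouse paralog, and Mylip, an LXR-induced ubiquitin ligase that promotes breakdown of lipoprotein receptors, gave -0.51 ± 0.21 and 0.20 ± 0.27 and were not called.

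Groups did not overlap for 8 of the 27 members in HF-C against LF-C, a state found for 8.44% of all genes tested in this direction. Without LF-C-1 and LF-C-2, 10 members were called lower, 7 of them among the 9 above; Mvk and Fdps lost the call, at -0.46 ± 0.17 and -0.67 ± 0.26 (edgeR adjusted p = 0.0589 and 0.0711), and Idi1, Hsd17b7 and Stard4 gained it, at -1.36 ± 0.29, -0.92 ± 0.18 and -1.09 ± 0.18. Across all genes, 4213 were then called, against 2458 with every library, so the member count alone does not measure stability. The members' median was then -0.49, Tm7sf2 gave -0.99 ± 0.13 and Pmvk -0.93 ± 0.25. Scap, Pmvk, Tm7sf2, Ebp and Acss2 stayed called whichever single library was left out. Mvk lost its call without LF-C-1 or any 1 HF-C library other than HF-C-5, Nsdhl without LF-C-1, HF-C-3, HF-C-2 or HF-C-5, Fdps without LF-C-1 or HF-C-2, and Cyp51 without any 1 HF-C library, LF-C-1 or LF-C-4. The largest edgeR adjusted p then was 0.0617 for Mvk, 0.0676 for Nsdhl, 0.0575 for Fdps and 0.135 for Cyp51. The number of members called was 5 without LF-C-1 or without HF-C-2, 15 without LF-C-2, and 14 without LF-C-3, of which 13 were lower. Calls across all genes in these fits were 1691 without LF-C-1, 1622 without HF-C-2, 3478 without LF-C-2 and 3320 without LF-C-3. Hepatocyte markers moved with the members: 9 of 12 fell (median log2 -1.19), and their summed level ran from 89549 to 196172 CPM in LF-C and from 45599 to 59117 in HF-C. Of the markers of recruited macrophages 8 of 9 rose (LF-C libraries summed to 37.2 to 99.3 CPM and HF-C libraries to 248 to 327), of stellate cells and fibroblasts 7 of 10 (255 to 299, then 701 to 1136) and of cholangiocytes 4 of 6 tested (33.9 to 115, then 157 to 516). Of the blood markers 2 of 5 tested fell (247 to 1455 CPM in LF-C libraries and 141 to 205 in those of HF-C), as did 1 of 9 endothelial markers. The part of these lists in the fall of the members was not tested, and in whole liver fewer cells of a type and less RNA per cell cannot be told apart. The authors' deposited table called 12 members lower and none higher, among 3875 genes called in all, against 2458 by edgeR here.

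In HF-KO against HF-C 13 of the 27 members rose and none fell: Insig1, Pmvk, Idi1, Fdps, Cyp51, Tm7sf2, Msmo1, Nsdhl, Hsd17b7, Ebp, Sc5d, Stard4 and Acss2. Across all genes tested, 4.35% were called higher and 5.43% lower. The median log2 fold change was 0.50 (0.02 over all genes tested), and 24 of the 27 values were above 0. Fold changes of the 13 ran from 0.50 for Sc5d to 1.46 for Idi1. Both this comparison and the diet comparison in controls use the same 5 HF-C libraries, so their opposite signs are not independent.

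**Figure D3:**
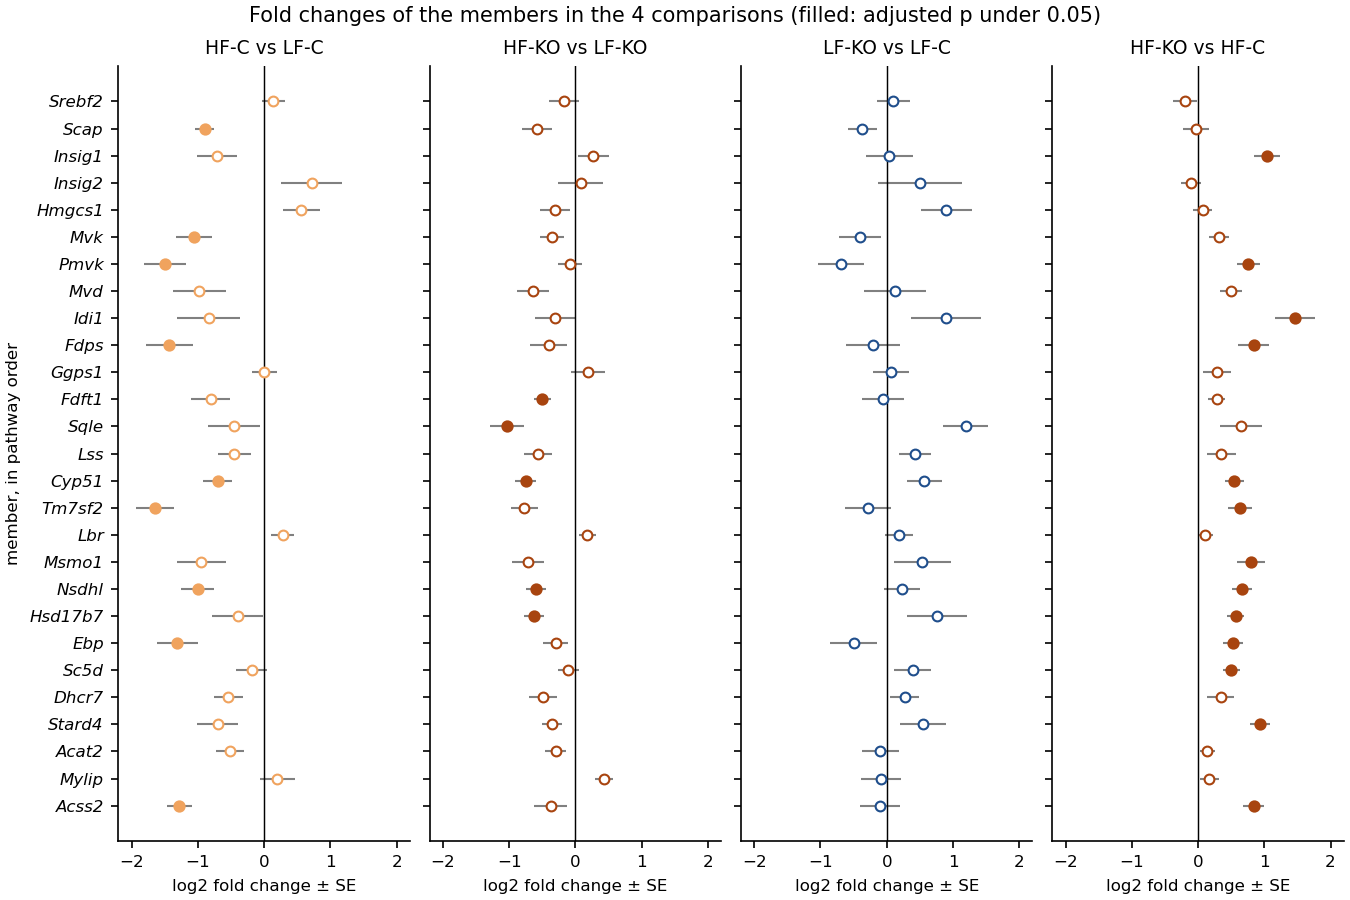
Points are log2 fold changes from edgeR and bars the SEs derived from its test, for the 27 members in pathway order, 1 panel per comparison. Filled points have an adjusted p under 0.05. Filled points number 9 in HF-C vs LF-C and 5 in HF-KO vs LF-KO, all below 0, none in LF-KO vs LF-C, and 13 in HF-KO vs HF-C, all above 0.

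Of the regulators, Insig1 alone rose. It ran from 122 to 256 CPM in HF-KO with a median of 238, against 79.2 to 133 in HF-C (log2 1.04 ± 0.20, edgeR adjusted p = 0.00721). HF-KO-1 lay inside the HF-C range, and the other 5 HF-KO libraries lay between 237 and 256 CPM, above every HF-C library. Srebf2 ran from 22.8 to 56.0 CPM in HF-KO (median 42.9), Scap from 34.1 to 80.5 (median 73.5) and Insig2 from 211 to 374 (median 263), each overlapping HF-C, with log2 values of -0.19 ± 0.18, -0.03 ± 0.19 and -0.10 ± 0.15. Scap, lower in HF-C than in LF-C, thus had no call here.

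Of the mevalonate genes 3 of 7 rose. Idi1 ran from 14.7 to 37.0 CPM in HF-KO (median 19.3) against 4.12 to 11.7 in HF-C, with no overlap (log2 1.46 ± 0.30, edgeR adjusted p = 0.0101). HF-KO-2 and HF-KO-6, at 37.0 and 35.5 CPM, were its highest libraries. Pmvk ran from 22.9 to 32.4 CPM (median 29.0), and only its lowest HF-KO library fell below the highest of HF-C (0.76 ± 0.17, edgeR adjusted p = 0.0173). Fdps ran from 110.4 to 221 CPM (median 188), with 1 HF-KO library, HF-KO-1, inside the HF-C range (0.84 ± 0.23, edgeR adjusted p = 0.0363). Mvk ran from 8.70 to 15.0 CPM and gave 0.32 ± 0.15, and Hmgcs1, the one member whose window held the sterol regulatory element TCACNCCAC, gave 0.07 ± 0.14.

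None of the squalene genes was called. Fdft1 ran from 56.5 to 74.5 CPM in HF-KO (median 62.0) and Sqle from 9.99 to 27.1 (median 17.0), each overlapping HF-C, with log2 values of 0.28 ± 0.13 and 0.65 ± 0.32. Lss gave 0.35 ± 0.22.

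From lanosterol to cholesterol 7 of 9 members rose. Nsdhl ran from 23.3 to 34.0 CPM in HF-KO (median 26.7), Hsd17b7 from 42.2 to 54.6 (median 51.1) and Ebp from 145 to 249.8 (median 158), and for these 3 every HF-KO library lay above every HF-C library. Their log2 values were 0.66 ± 0.15, 0.57 ± 0.13 and 0.53 ± 0.15, with edgeR adjusted p = 0.0178, 0.0153 and 0.0444. Msmo1 ran from 33.1 to 67.9 CPM (median 57.4), Cyp51 from 44.8 to 72.7 (median 57.0), Tm7sf2 from 44.1 to 87.3 (median 62.3) and Sc5d from 314 to 447 (median 379), each with a short overlap with HF-C. Their log2 values were 0.80 ± 0.21, 0.55 ± 0.14, 0.63 ± 0.18 and 0.50 ± 0.13, with edgeR adjusted p = 0.0275, 0.0323, 0.0416 and 0.0323. Lbr and Dhcr7 were not called, at 0.11 ± 0.11 and 0.34 ± 0.21.

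Stard4 and Acss2 also kept the groups apart. Stard4 ran from 86.2 to 115 CPM in HF-KO (median 98.3) against 35.2 to 59.5 in HF-C (log2 0.93 ± 0.15, edgeR adjusted p = 0.00262). The lowest HF-KO library thus stood well above the highest of HF-C. Acss2 ran from 82.6 to 171 CPM (median 110.1) against 53.2 to 74.0 (0.84 ± 0.16, edgeR adjusted p = 0.0087), with HF-KO-5 its highest library. Acat2 and Mylip were not called, at 0.14 ± 0.11 and 0.17 ± 0.14.

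**Figure D4:**
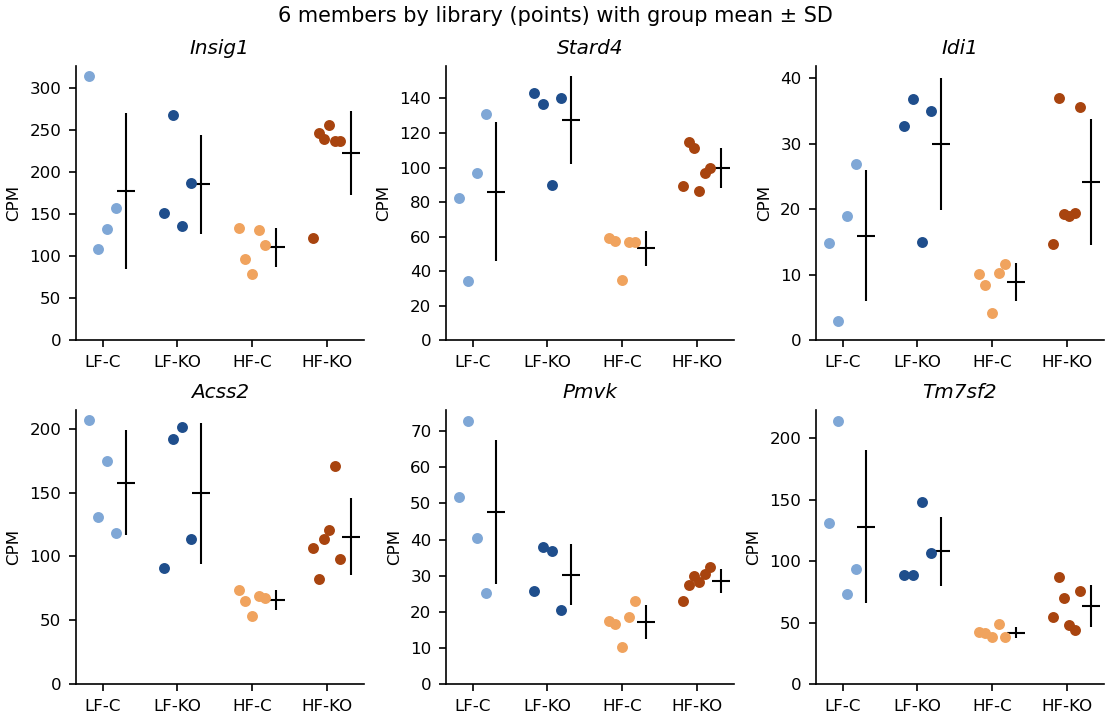
Points are CPM of 1 library each, by group, for Insig1, Stard4, Idi1, Acss2, Pmvk and Tm7sf2, and the black marks beside them give the group mean ± SD (n = 4, 4, 5 and 6). In Stard4, Idi1 and Acss2 all 6 HF-KO points lie above all 5 HF-C points, and in Insig1 5 of 6 do.

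Groups did not overlap for 6 of the 27 members, against 4.05% of all genes tested in this direction. Without HF-KO-2, 14 members were called, all 13 above among them. Insig1, Idi1, Stard4 and Acss2 stayed called under each alternative tried, whichever library was left out, and Pmvk, Nsdhl and Hsd17b7 whichever library was left out. The other 6 each lost the call in 6 to 8 of the 11 fits that left out 1 library, all of them without HF-C-2, HF-C-3, HF-C-5 or HF-KO-6, and their largest edgeR adjusted p ran from 0.0653 (Msmo1) to 0.115 (Ebp). The count was 7 without HF-C-2, HF-C-3, HF-C-5 or HF-KO-6 and 8 without HF-C-1, and 4 when all 19 libraries shared 1 fit. Across all genes, 1360 were called in the main fit. Without HF-C-1, HF-C-2, HF-C-3 and HF-C-5 they were 846, 766, 1066 and 728. Without HF-KO-2 and HF-KO-6 they were 1813 and 1131, and in the shared fit 531. The authors' deposited table called 14 members higher and none lower, among 2273 genes called in all. Marker lists moved here too. Of the hepatocyte markers 4 of 12 rose and 1 fell (summed 60856 to 74773 CPM in HF-KO), 7 of 9 macrophage markers fell (100.3 to 206 CPM), as did 6 of 10 stellate and fibroblast markers (372 to 561 CPM) and 4 of 6 cholangiocyte markers tested (88.0 to 190.1 CPM), and 3 of 5 blood markers tested rose (179.8 to 415 CPM against 141 to 205 in HF-C). Of the endothelial markers 1 of 9 rose. Of the adipocyte markers 1 could be tested, Cfd, and it fell. The list summed to 2.92 to 13.1 CPM in HF-C, where Plin1 was at 0 in every library. In HF-KO the list summed to 0.0 to 0.349 CPM, and there Lep was at 0. Cfd averaged 3.67 CPM in LF-C and 0.0343 in LF-KO, a pair in which it was not tested. The median hepatocyte marker gave 0.25, and the part of these lists in the members' rise was not tested.

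Within knockout mice, in HF-KO against LF-KO, 5 of 27 members fell and none rose: Fdft1, Sqle, Cyp51, Nsdhl and Hsd17b7. Across all genes tested, 1.06% were called lower and 3.62% higher. The median log2 fold change was -0.36 (0.01 over all genes tested), and 22 of 27 values were negative. All 5 are enzymes after farnesyl diphosphate, and of the 4 regulators and 7 mevalonate genes none was called.

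Sqle read 35.9, 53.0, 26.4 and 31.0 CPM in LF-KO, and only HF-KO-6, at 27.1, reached that range (log2 -1.03 ± 0.26, edgeR adjusted p = 0.0453). Cyp51 read 92.9, 121, 78.8 and 95.7 CPM in LF-KO, all above HF-KO (-0.75 ± 0.16, edgeR adjusted p = 0.0279). Hsd17b7 read 88.3, 67.5, 59.6 and 90.7 CPM (-0.62 ± 0.15, edgeR adjusted p = 0.0347), Nsdhl 37.4, 52.7, 38.2 and 40.5 (-0.59 ± 0.15, edgeR adjusted p = 0.0434) and Fdft1 94.3, 99.1, 77.6 and 94.3 (-0.50 ± 0.13, edgeR adjusted p = 0.0448). For these 3, too, no HF-KO library reached the LF-KO range. Tm7sf2 read 88.5, 88.7, 148 and 107 CPM in LF-KO, with no overlap and no call (-0.77 ± 0.21, edgeR adjusted p = 0.0608). Groups thus did not overlap for 5 of the 27 members. The share of all genes with such a separation was not counted for this comparison, so this is a description only.

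These calls depended on single libraries. No member was called without HF-KO-1, without HF-KO-3, or without any LF-KO library other than LF-KO-2; 1 was called without HF-KO-4 or HF-KO-5, 2 without LF-KO-2 or HF-KO-6, and 7 without HF-KO-2, of which 6 were lower. Across all genes, 637 were called with every library, and 265 and 396 without HF-KO-1 and HF-KO-3. Without LF-KO-1, LF-KO-3 and LF-KO-4 they were 326, 0 and 4, and without HF-KO-2 they were 1214. Whichever library was left out, the members' median lay between -0.48 and -0.30. The authors' deposited table called 6 members lower, among 1335 genes called in all. Of the hepatocyte markers 6 of 12 fell and 8 of 9 macrophage markers rose. So did 2 of 10 stellate and fibroblast markers, 2 of 6 cholangiocyte markers tested and 1 of 9 endothelial markers. None of the 5 blood markers tested was called, and no adipocyte marker could be tested. The part of these lists in the members' fall was not tested. Clock genes, which vary with the hour of the day, moved in the same comparison: 4 of 14 fell (Ciart, Cry1, Hlf and Tef), and their summed level ran from 718 to 1073 CPM in LF-KO and from 570.4 to 746 in HF-KO. In HF-C against LF-C 1 of 14, Cry2, fell (-0.70 ± 0.17, edgeR adjusted p = 0.0196), and in HF-KO against HF-C none was called. The median of the 14 clock genes was -0.56 in HF-KO against LF-KO, -0.50 in HF-C against LF-C and 0.12 in HF-KO against HF-C. Cholesterol synthesis genes are themselves rhythmic in liver, and the part of sampling hour was not tested in any comparison.

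On the low fat diet no member was called between LF-KO and LF-C by edgeR, nor was any of the 13056 genes tested (0.0%). At an unadjusted p under 0.05 stood 3 members, Hmgcs1 (0.90 ± 0.39), Sqle (1.19 ± 0.34) and Cyp51 (0.57 ± 0.26), each with edgeR adjusted p = 0.704, among 554 genes in all. DESeq2 and limma-voom also called 0 members. Without LF-C-1 and LF-C-2 again no member was called, and Sqle gave 1.15 ± 0.27 and Hmgcs1 0.71 ± 0.35.

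LF-KO values of the regulators overlapped LF-C throughout. Srebf2 read 62.0, 41.6, 35.9 and 53.6 CPM, Scap 114, 70.0, 104 and 101, Insig1 151, 268, 136 and 187, and Insig2 154, 424, 365 and 99.3. LF-KO-2 was the highest LF-KO library for 17 of the 27 members, Insig1 and Insig2 among them. Mvk read 16.6, 14.2, 11.3 and 18.1 CPM, Pmvk 25.8, 37.8, 36.9 and 20.5, Idi1 32.7, 36.8, 15.0 and 35, and Fdps 130.1, 396, 248 and 181. Each of these mevalonate genes overlapped its LF-C range. Msmo1 read 108, 91.9, 50.5 and 104 CPM, Ebp 164, 214, 272 and 199, and Sc5d 364, 519, 444 and 309.5. Stard4 read 143, 137, 89.9 and 140 CPM in LF-KO and Acss2 90.9, 192, 201 and 114, again without separation from LF-C. Sqle was the 1 member whose groups did not overlap, at 26.4 to 53.0 CPM in LF-KO against 7.73 to 22.7 in LF-C. The share of all genes with such a separation was not counted for this comparison.

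Whether the KO difference itself changed with diet was tested over all 19 libraries. No member was called for the HF-KO to HF-C difference less the LF-KO to LF-C difference, and 0.202% of all genes tested were. Pmvk came closest, at 1.43 ± 0.37 (edgeR adjusted p = 0.109), and 8 members had an unadjusted p under 0.05: Insig1, Hmgcs1, Mvk, Pmvk, Fdps, Tm7sf2, Ebp and Acss2. For 7 of these the difference was above 0, and for Hmgcs1 it was -0.86 ± 0.38. Without LF-C-1 and LF-C-2 no member was called and all 8 values were nearer 0: Pmvk gave 0.88 ± 0.33 (edgeR adjusted p = 0.236), Acss2 0.81 ± 0.35, Insig1 0.68 ± 0.35, Ebp 0.36 ± 0.27, Fdps 0.30 ± 0.44, Tm7sf2 0.25 ± 0.31, Mvk 0.12 ± 0.27 and Hmgcs1 -0.65 ± 0.35. These 8 had been picked by their p with both libraries included. Other members moved either way: Idi1 went from 0.53 to 1.08, Stard4 from 0.35 to 0.77 and Scap from 0.32 to 0.16. Mvd changed sign, from 0.34 to -0.75. Stard4 then had the smallest edgeR adjusted p, 0.207, and the members' median went from 0.24 to 0.16. With all LF-C libraries, DESeq2 called 1 member, Pmvk, and limma-voom called 0. Without LF-C-4, edgeR also called Pmvk. The 13 calls in HF mice beside 0 in LF mice are thus not shown to differ by diet.

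Per length, the members spanned a wide range of levels. In deposited FPKM, Fdps was highest in LF-C at 177 ± 59.1 (SD, n = 4), followed by Ebp at 134 ± 43.2 and Sc5d at 121 ± 49.7, 3 values that do not differ beyond their spread. Lbr at 2.28 ± 0.732, Ggps1 at 2.46 ± 0.828 and Sqle at 3.15 ± 1.45 were lowest and likewise not apart. In HF-C the order at the top was Sc5d at 137 ± 20.4 FPKM, Insig2 at 127 ± 18 and Fdps at 94.5 ± 30.3. Of the C14 reductases, Tm7sf2 stood at 68.7 ± 19.5 FPKM in LF-C and at 31.7 ± 2.77 in HF-C, and Lbr at 2.28 ± 0.732 and 3.66 ± 0.502.

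**Figure D5:**
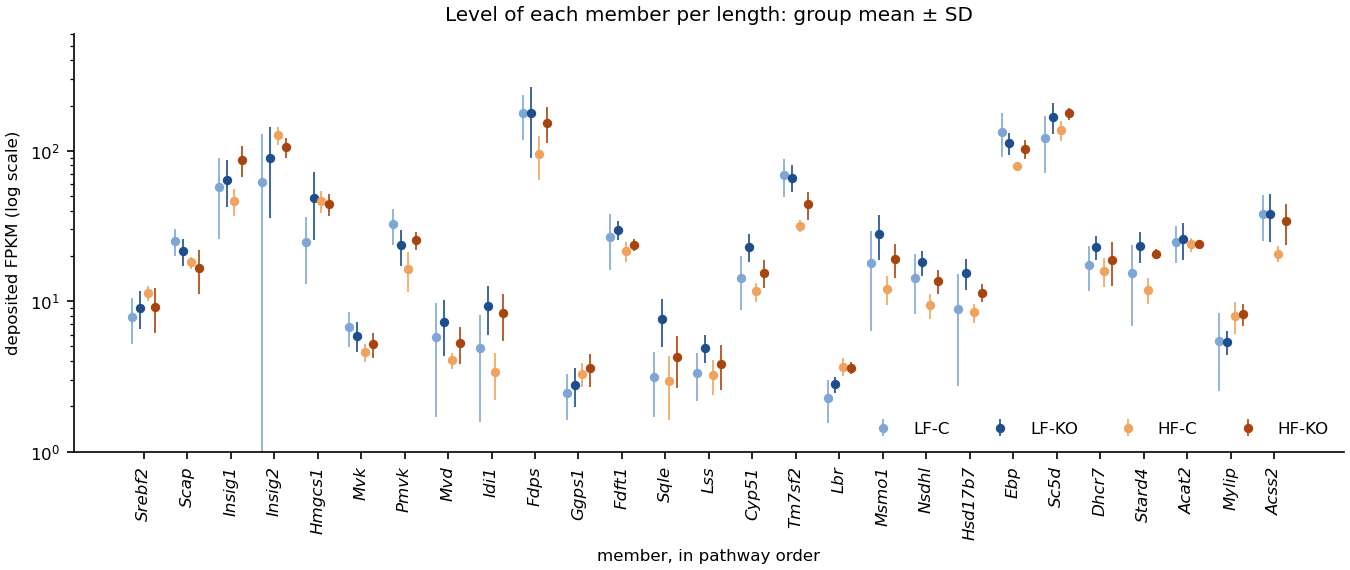
Points are group means of the deposited FPKM on a log axis, with bars of 1 SD, for the 27 members in pathway order and the 4 groups in colour. Fdps, Ebp, Sc5d and Insig2 are the highest and Lbr, Ggps1, Sqle and Lss among the lowest; the lower bar of Insig2 in LF-C leaves the axis because its SD (67.0) exceeds its mean (62.0).

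The neighbours of the pathway showed few calls. Among 11 tested genes that process SREBPs or remove sterol-sensing proteins, Rnf145, a sterol-responsive ubiquitin ligase that acts on Scap, rose in HF-C against LF-C from 23.5 ± 8.93 to 51.1 ± 3.22 CPM (log2 1.11 ± 0.25, edgeR adjusted p = 0.0139). Rnf139, a ligase of the same membrane, rose in HF-KO against HF-C from 30.7 ± 1.82 to 42.9 ± 6.49 CPM (0.52 ± 0.12, edgeR adjusted p = 0.0177). Of 8 redox partners and accessory genes, Cyb5b alone was called, higher in HF-KO than in HF-C (0.58 ± 0.11, edgeR adjusted p = 0.00888), and of 10 genes of the isoprenoid branch none was called in any comparison.

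The fatty acid genes driven by the related factor SREBP1 had few calls. In HF-C against LF-C 2 of 14 fell, Thrsp (log2 -1.59 ± 0.29, edgeR adjusted p = 0.00484) and Acly, the enzyme that makes cytosolic acetyl-CoA from citrate (-0.97 ± 0.26, edgeR adjusted p = 0.0293). In HF-KO against HF-C none of the 14 was called and their median was 0.01. Thrsp and Acly were above 0 there without a call, at 0.80 ± 0.32 and 0.80 ± 0.28 (edgeR adjusted p = 0.122 and 0.0816). Whether the 2 lists differ was not tested.

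Genes that export or store cholesterol moved in both directions. In HF-C against LF-C, Abcg1, a sterol exporter prominent in macrophages, rose from 8.84 ± 1.41 to 28.5 ± 5.67 CPM (log2 1.66 ± 0.20, edgeR adjusted p = 0.000588), and Pltp, a phospholipid transfer protein, rose by 0.69 ± 0.21. Abcg8, which exports sterols into bile, fell (-0.75 ± 0.18, edgeR adjusted p = 0.0185); the other 7 of this list of 10 were not called. Soat1, which esterifies cholesterol, rose from 6.31 ± 2.21 to 18.4 ± 2.36 CPM (1.52 ± 0.24, edgeR adjusted p = 0.00202). It was 1 of 3 genes that rose among 11 for uptake, storage and lysosomal release, and 2 fell, Lcat (-1.01 ± 0.21) and Cyp27a1 (-0.76 ± 0.19). In HF-KO against HF-C, Abcg1, Pltp and Soat1 fell (-0.73 ± 0.19, -0.96 ± 0.17 and -0.59 ± 0.12). Macrophage markers fell there too, and their part in this was not tested. Cyp7a1, the rate-limiting enzyme of bile acid synthesis, rose from 160.3 ± 37.8 to 346 ± 152 CPM (1.15 ± 0.28, edgeR adjusted p = 0.0221). Within knockout mice, in HF-KO against LF-KO, Abcg1 and Soat1 rose (1.12 ± 0.24 and 0.74 ± 0.16) and Lcat fell (-0.60 ± 0.14). No other gene of these 2 lists was called there.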

How the data were processed

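Whole-liver RNA was sequenced as non-strand-specific read pairs and mapped to the mouse genome with STAR, per the labels' protocols; HTSeq 0.6.1 and DESeq2 are named in the submitters' processing notes. The build is not given in the sources used here, but all 27 members' deposited coordinates overlap the same genes in GENCODE M21 (GRCm38). The authors deposited raw read counts per gene, FPKM (scaled to listed gene length and counted fragments) and, per comparison, log2 fold changes and p-values with adjusted p-values. The 38 columns that recur between tables were identical. No column lacked a sample.

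Counts were tested with edgeR 4.0.16 (R 4.3.3) on the libraries of each pair of groups: filterByExpr, TMM factors, quasi-likelihood test, two-sided, Benjamini-Hochberg over all genes tested. All 27 members passed the filter in each fit. The difference of KO effects used all 19 libraries. CPM used TMM factors over all 19 libraries. Alternatives were DESeq2 1.42.0, limma-voom (limma 3.58.1), other scalings, no filter, the replicate number as a block, 1 fit of all libraries, and leaving out libraries.

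Members and lists were chosen with earlier results of these data known. Values per library are given for members called in any of the 5 edgeR fits just described and for the 4 regulators; of other genes, Pparg and at most 4 per list, those with the smallest p.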

Additional observations from a re-analysis of the deposited data

Results flagged for a closer look

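In 7 of 108 groups of a member's CPM 1 library lay far from the rest of its group by Dixon's criterion, which chance alone meets in about 1 in 20 groups. Insig1 read 122 CPM in HF-KO-1, against 237 to 256 in the other 5 HF-KO libraries. Insig2 read 449 CPM in LF-C-3, against 82.1 to 104 in the other LF-C libraries. Stard4 read 35.2 CPM in HF-C-3, against 57.0 to 59.5, and 89.9 CPM in LF-KO-3, against 137 to 143. Scap read 78.3 CPM in HF-C-2, against 63.5 to 65.6, and Mvd read 21.4 CPM in LF-KO-2, against 10.3 to 11.9. Ebp read 249.8 CPM in HF-KO-2, against 145 to 174. HF-C-3 was the lowest HF-C library for 20 of the 27 members and HF-KO-1 the lowest HF-KO library for 13. No cause was tested.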

How the results depend on the processing

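No called value changed sign under any alternative run. Of the 27 called values, 7 stayed called under each of them: Acss2, Pmvk and Tm7sf2 in HF-C against LF-C, and Acss2, Idi1, Insig1 and Stard4 in HF-KO against HF-C. Over all called values and alternatives, 317 results kept the call and 155 lost it. The counts of members called were 9 (HF-C vs LF-C), 5 (HF-KO vs LF-KO) and 13 (HF-KO vs HF-C). They became 4, 0 and 5 when scaled by library size alone, which moved the median of all genes from 0.02 to 0.43, from 0.01 to 0.19 and from 0.02 to -0.11. With the replicate block they became 3, 1 and 7; in no comparison did every same-numbered pair of libraries correlate above 0.1 in its deviations, so the numbers were not taken to pair mice, though in HF-KO vs LF-KO all 4 were above 0 (0.081 to 0.278). Across all genes, calls in the same comparisons went from 2458, 637 and 1360 to 3056, 952 and 1361 by library size alone. With the replicate block they were 700, 178 and 786. With no filter HF-KO vs LF-KO gave 3 members, and with all 19 libraries in 1 fit it gave 1 and HF-KO vs HF-C gave 4. Leaving out 1 library gave 5 to 15, 0 to 7 and 7 to 14. For the difference of KO effects the range was 0 to 1, and DESeq2 gave 1. The causes were not tested, apart from the smaller groups. LF-KO vs LF-C gave 0 under every alternative. Counting error is largest for members with few fragments, down to 40 in 1 library.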
